A study of Mus musculus with 27 samples.

Results

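The genes described here are the D-type cyclins Ccnd1, Ccnd2 and Ccnd3, their kinase partners Cdk4 and Cdk6, the CDK inhibitors Cdkn1a, Cdkn1b, Cdkn1c and Cdkn2c, and the pocket protein gene Rbl2. Members were all probe sets that the platform annotation pairs with 1 of these 10 symbols. Of the 12488 probe sets on the array, 13 were members, and they stood for 9 of the 10 genes. Cdk6 is not among the symbols of the annotated probe sets and has no value here. A brightness filter, set at the 40th percentile of the mean log2 intensity, kept 10 member probe sets among the 7453 tested. The 3 that it left out were both probe sets of Cdkn1b and the probe set of Cdkn1c.

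D-type cyclins are made in response to growth factors and bind CDK4 or CDK6 in G1 phase. The active kinase phosphorylates the retinoblastoma protein and its relatives p107 (Rbl1) and p130 (Rbl2), which releases E2F factors and lets S phase genes be transcribed. INK4 inhibitors such as p18 (Cdkn2c) bind CDK4 and CDK6 alone, whereas the CIP/KIP inhibitors p21 (Cdkn1a), p27 (Cdkn1b) and p57 (Cdkn1c) bind cyclin-CDK complexes. In fibroblasts, cyclin D1 is a classical gene of the growth factor response and p130 marks quiescent cells.

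The RNA came from NIH/3T3, a permanent line of mouse embryonic fibroblasts that is known to lack the Cdkn2a locus. All groups shared the same handling, which was growth in 20% fetal bovine serum, a stepwise reduction to 10% and 5%, and then 2 h in serum-free medium with 15 µM forskolin, which raises cyclic AMP by switching on adenylyl cyclase. The cells were then rinsed and held without serum, and flasks were harvested at 0 h, which is the end of the pulse, and every 6 h to 48 h. This was done in 3 experiments, named as biological replicates in the labels, so each of the 9 time points had 3 arrays and the series 27. Cultures that never received forskolin or that kept their serum were not analysed here, so a change from 0 h is a change since the end of the pulse, and time without serum and time since forskolin cannot be told apart.

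All array medians lay between 166.8 and 200.6 intensity units, and the actin 3′ to 5′ ratio, a sign of RNA quality, was between 1.35 and 1.70 at 0 h and between 1.29 and 1.65 at 48 h. Experiment 1 lay apart on the first principal component, which carried 28.7% of the variance. Its 18 h and 30 h arrays also stood apart in the clock output gene Tef, which read 9.48 and 11.45 on them. The same time points gave Tef values of 11.08 and 9.82 in experiment 2, while experiment 3 had 11.02 and 10.40. Each count of called members from the planned tests was the same without these 2 arrays. All 11 fibroblast markers passed the brightness filter, with mean log2 intensities from 7.23 for Vim to 14.52 for Col1a2. Of 30 markers of other cell types 12 passed it. These were 1 of 7 epithelial (Cdh1, 9.0), 2 of 6 leukocyte (Cd68, 8.05, and Csf1r, 7.61), 1 of 4 endothelial (Kdr, 7.15), 4 of 5 skeletal muscle (Myod1 highest, 8.01), 4 of 5 neuron and glia (Tubb3 highest, 10.69) and 0 of 3 adipocyte markers. The pan-leukocyte gene Ptprc and the epithelial gene Epcam lay below it at 4.49 and 4.36. In such bulk RNA, fewer cells of a kind and less transcript per cell cannot be told apart.

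Promoter windows from RefSeq (GRCm38.p6) covered 7 of the 10 genes with 10 windows of 250 bases before an annotated start. Ccnd1, Ccnd2 and Cdkn1c had no entry. Both strands were searched for TGACG, the core that CREB and AP-1 family factors can bind, for the palindrome TGACGTCA that contains it, for the E-box CACGTG bound by MYC and by CLOCK-BMAL1, and for the E2F motifs TTTGGCGC, TTTCGCGC and TTTCCCGC. TGACG occurred in 17.77% of all 32851 windows and in 4 member windows, those of Ccnd3, Cdk4 and Cdk6. CACGTG occurred in 6.02% of all windows and in the windows of Cdk4, with 4 copies, and Cdk6, with 1. TGACGTCA, TTTGGCGC, TTTCGCGC and TTTCCCGC were in 1.55%, 0.42%, 0.26% and 0.89% of all windows and in 0 member windows. Shown are both windows of Ccnd3 and the upstream one of the 2 windows of Cdkn2c, which are the members called over time that have an entry, and the window of Cdk4, which holds the 4 E-boxes. Each is written 5′ to 3′ on the gene's strand, with CACGTG and TGACG in capitals, the latter as its reverse complement where it lies on the other strand.
Ccnd3, chr17:47504801-47505050, plus strand: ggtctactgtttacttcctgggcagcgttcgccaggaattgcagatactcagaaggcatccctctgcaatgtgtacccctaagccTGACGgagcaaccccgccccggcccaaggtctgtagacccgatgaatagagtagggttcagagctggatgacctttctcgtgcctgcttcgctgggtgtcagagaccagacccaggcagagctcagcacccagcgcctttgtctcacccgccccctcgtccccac
Ccnd3, second start, chr17:47593217-47593466, plus strand: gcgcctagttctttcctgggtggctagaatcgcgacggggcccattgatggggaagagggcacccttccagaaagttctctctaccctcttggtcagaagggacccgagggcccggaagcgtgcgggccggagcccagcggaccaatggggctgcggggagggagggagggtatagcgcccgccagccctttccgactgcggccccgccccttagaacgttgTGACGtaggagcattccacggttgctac
Cdk4, chr10:127063285-127063534, plus strand: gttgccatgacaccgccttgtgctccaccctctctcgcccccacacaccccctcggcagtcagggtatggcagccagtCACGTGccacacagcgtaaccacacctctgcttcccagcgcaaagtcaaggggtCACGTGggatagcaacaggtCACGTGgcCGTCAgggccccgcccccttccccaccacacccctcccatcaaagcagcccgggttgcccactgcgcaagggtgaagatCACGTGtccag
Cdkn2c, chr4:109666757-109667006, minus strand: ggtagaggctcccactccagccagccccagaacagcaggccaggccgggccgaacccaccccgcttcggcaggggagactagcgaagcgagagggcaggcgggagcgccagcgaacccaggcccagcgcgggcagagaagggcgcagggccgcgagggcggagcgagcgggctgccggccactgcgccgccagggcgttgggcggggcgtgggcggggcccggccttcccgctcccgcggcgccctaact
The TGACG copies of Ccnd3 lie 165 and 28 bases before the 2 starts. The E-boxes of Cdk4 lie 172, 118, 98 and 11 bases before its start, and neither Cdkn2c window, the second being chr4:109665373-109665622, holds any of the searched motifs. A match is a run of letters and does not show that a factor is bound. The GC content was 59.6% and 64.8% in the Ccnd3 windows, 64.4% in that of Cdk4, and 77.2% in the Cdkn2c window shown but 42.8% in the second one, against a median of 52.4% over all windows.

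Values below are log2 intensities after quantile normalization, and changes are differences of these with their SE (n = 3 arrays at each time). A call is an adjusted p below 0.05 in limma with Benjamini-Hochberg adjustment over the 7453 tested probe sets. Whether the 3 values of 1 time point overlap those of another is given as a description only. The share of all probe sets without such overlap is not given here, so a lack of overlap is not a call. The experiment numbers paired the arrays, so the adjusted p from the fit with the experiment as a block is given where it changes the call of a member. Asked whether the 9 time points differed at all, limma called 7.30% of all probe sets and 3 of the 10 tested members, namely Cdkn2c, Ccnd3 and 1 of the 2 Ccnd1 probe sets. With the block it called 26.4% of all probe sets and 4 members, the added one being the other Ccnd1 probe set (adjusted p = 0.100 without and 0.00123 with the block). The adjusted p was 0.000932 for Cdkn2c, 0.0177 for Ccnd3 and 0.0215 for Ccnd1. The profiles differed in timing. The Ccnd1 mean was lowest at 6 h and highest at 42 h, that of Ccnd3 was lowest at 6 h and highest at 30 h, and that of Cdkn2c was highest at 6 h and lowest at 48 h.

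**Figure D1:**
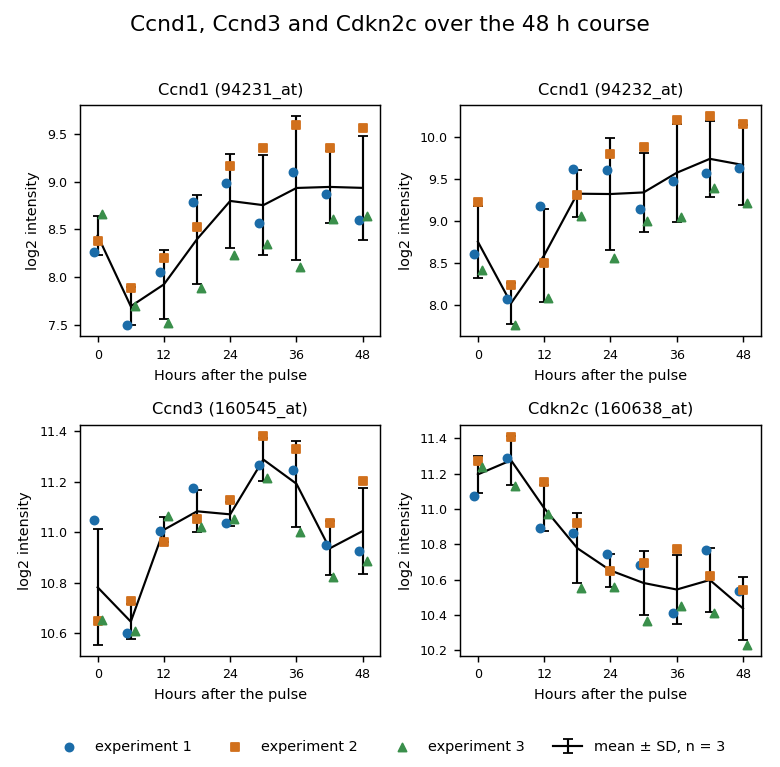
Log2 intensity of both Ccnd1 probe sets, Ccnd3 and Cdkn2c on the y axis against hours after the pulse on the x axis. Points are the 3 experiments and the line with bars is the mean ± SD. Both Ccnd1 panels have their lowest mean at 6 h, and the Cdkn2c mean goes from 11.20 at 0 h to 10.44 at 48 h.

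Ccnd1 encodes cyclin D1 and lies on chromosome 7 (GRCm38.p6, 144929931 to 144939831). Its probe set 94232_at read 8.61, 9.23 and 8.42 in experiments 1, 2 and 3 at 0 h. At 6 h it read 8.07, 8.24 and 7.76. All 3 values at 6 h were below all 3 at 0 h, and the mean went from 8.75 ± 0.43 to 8.02 ± 0.24 (SD, n = 3). The second probe set, 94231_at, read 8.27, 8.38 and 8.66 at 0 h and 7.50, 7.89 and 7.70 at 6 h. These groups did not overlap either. The differences from 0 h were -0.73 ± 0.36 and -0.74 ± 0.36, with adjusted p = 0.301 and 0.283 in limma without the block and 0.0208 and 0.039 with it. Thus the Ccnd1 difference at 6 h was called only in the paired fit. In that contrast limma called 6.09% of all probe sets and 0 members without the block (454 probe sets in all, with 2 members at an unadjusted p below 0.05), against 16.7% and 3 members with it.

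At each later time point the Ccnd1 mean was above its 6 h value in both probe sets. This was not so in every experiment, since 94231_at in experiment 3 read 7.70 at 6 h and 7.52 at 12 h. At 12 h the mean of 94232_at was 8.59. It was 9.32 at both 18 h and 24 h, then 9.34 at 30 h, and it reached 9.57 at 36 h and 9.74 at 42 h. At 48 h the experiments read 9.63, 10.15 and 9.21. Every experiment was thus above each of the 6 h values, by 1.56, 1.92 and 1.46 within experiments 1, 2 and 3. Ccnd1 rose by 1.65 ± 0.36 from 6 h to 48 h (adjusted p = 0.0109 in limma), or from a mean deposited intensity of 246.8 ± 45.0 to 838.5 ± 287.9 (SD, n = 3). The other probe set was higher by 1.24 ± 0.36, with adjusted p = 0.0539 without the block and 0.00121 with it, and was also higher in 3 of 3 experiments. In this contrast limma called 1.56% of all probe sets higher and 1.92% lower, and with the block 6.79% higher, with 3 members among these. The adjusted p of 94232_at was 0.0704, 0.107 and 0.116 when experiment 1, 2 or 3 was left out.

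The gain over the whole course was smaller against the end of the pulse. At 48 h 94232_at stood 0.91 ± 0.36 above 0 h, higher in 3 of 3 experiments, with adjusted p = 0.139 in limma without the block and 0.00339 with it. The differences at 36 h and 42 h were 0.82 and 0.99, with adjusted p = 0.00862 and 0.00189 with the block and none called without it. For 94231_at the 48 h values were 8.60, 9.56 and 8.65, and experiment 3 was at its 0 h level. The mean difference of 0.50 was called in neither fit. The experiments differed in Ccnd1 level throughout, with means over the 9 time points of 9.21, 9.51 and 8.73 for 94232_at and 8.53, 8.89 and 8.19 for 94231_at. Experiment 3 was lowest in both.

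A straight line through the 24 arrays from 6 h to 48 h, fitted beside 24 h cosine and sine terms, gave Ccnd1 a slope of 0.76 per day for 94232_at (adjusted p = 0.00948 in limma) and 0.70 per day for 94231_at (adjusted p = 0.0172). In this trend test 2.83% of all probe sets rose and 3.30% fell, and among the members Ccnd1 rose with both probe sets and Cdkn2c fell. Both Ccnd1 trend calls were lost without experiment 2 (adjusted p = 0.141 and 0.167) and without experiment 3 (0.064 and 0.0752). By Pearson correlation over the 9 time means, which is a description, the probe sets most like 94232_at were those of Ehd1 (r = 0.985), Slc7a5 (0.981) and Bpnt2 (0.971).

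Ccnd3, on chromosome 17 (47505051 to 47599689), encodes cyclin D3, which is found in many differentiated and resting cells. It read 11.05, 10.65 and 10.65 at 0 h, 10.60, 10.73 and 10.61 at 6 h and 11.27, 11.38 and 11.22 at 30 h. The 30 h values were above all of the 0 h and 6 h values. Ccnd3 rose by 0.51 ± 0.12 from 0 h to 30 h (adjusted p = 0.0105 in limma, higher in 3 of 3 experiments) and by 0.41 to 36 h (adjusted p = 0.0381).  Experiment 1 started high, and its own gain at 30 h was 0.22, against 0.74 and 0.56 in experiments 2 and 3. The mean was back at 10.94 at 42 h and 11.01 at 48 h, where the difference from 0 h was not called in either fit. With the block Ccnd3 was also called at 18 h (0.30, adjusted p = 0.0395) and from 6 h to 48 h (0.36, adjusted p = 0.0193).

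The Ccnd3 calls at 36 h and over all time points depended on the scaling. These and the 30 h call were also lost with experiments left out, in fits of fewer arrays and without the block. There limma called 504, 111 and 31 probe sets over time without experiments 1, 2 and 3, against 544 with all arrays. The span of the Ccnd3 time means stayed at 0.592 to 0.66 in every alternative, against 0.642 in the main fit. Centring each array on its median, in place of quantile normalization, gave adjusted p = 0.0997 over all time points and 0.178 for 36 h. The 30 h call was kept under this centring (adjusted p = 0.0446 in limma). The 30 h call was lost without experiment 2 (adjusted p = 0.268) and without experiment 3 (0.209), the 36 h call without any one experiment, and the call over all time points without any one experiment. The probe sets most like Ccnd3 over the time means were those of Fam53a (r = 0.949), Eln (0.939) and Tmsb4x (0.937). The calls higher than 0 h numbered 3.72% of all probe sets at 30 h and 3.85% at 36 h, and those lower 2.87% and 3.48%. At 18 h either direction made up 7.54%, or 19.7% with the block.

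Ccnd2, on chromosome 6 (127125162 to 127152188), encodes cyclin D2. It was dim, with a mean log2 intensity of 7.08 just above the filter floor of 6.77. It read 7.76, 7.87 and 7.43 at 0 h and 6.86, 6.20 and 6.74 at 12 h. The 12 h values were all below the 0 h values, with a difference of -1.08 ± 0.41 (adjusted p = 0.121 in limma, 0.0463 with the block). At 24 h it was lower by 0.72, 0.77 and 0.47 in the 3 experiments, again without overlap, and this was not called. At 36 h the experiments spread widely, with 7.75, 5.38 and 6.91. The 95% interval of the 48 h difference ran from -1.20 to 0.52. At 12 h limma called 8.33% of all probe sets and 0 members, and 20.4% and 2 members with the block. The mean deposited intensity was 190.5 ± 33 at 0 h and 88.3 ± 27 at 12 h (SD, n = 3), a change that the log2 scale with its pseudocount understates only slightly. Without detection calls, how much of so low a signal is background cannot be told.

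Cdk4, on chromosome 10 (127063535 to 127067288), encodes the kinase that D cyclins activate in fibroblasts. Its bright probe set 160538_at stayed between 12.31 and 12.89 over all 27 arrays, a deposited intensity of 4950.5 to 7936.2. Its time means ranged from 12.54 at 48 h to 12.70 at 30 h, and the adjusted p over time was 1 in limma. The 95% interval of its 48 h difference from 0 h was -0.37 to 0.25, which still allows a modest change. With the block the SE of this difference was 0.08 in place of 0.15. The second probe set, 101017_at, scattered more. At 6 h it read 10.87, 9.41 and 10.15, so that experiment 1 was 1.01 above and experiment 2 was 0.61 below its own 0 h value. It was not called in any test, and the 95% interval of its 48 h difference was -0.59 to 0.53. The 2 probe sets thus differed in spread, with a mean SD within time points of 0.18 and 0.30.

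**Figure D2:**
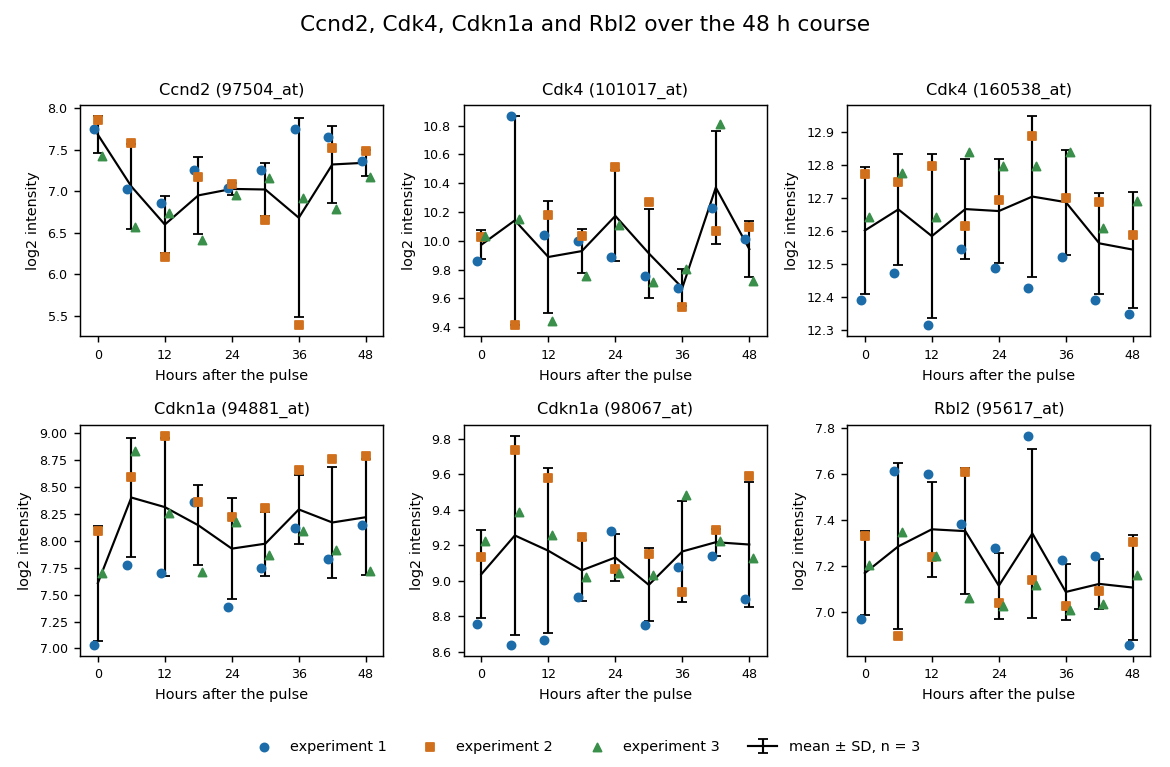
Log2 intensity of Ccnd2, both Cdk4, both Cdkn1a and the Rbl2 probe sets on the y axis against hours after the pulse on the x axis, with the y range set for each panel. Points are the 3 experiments and the line with bars is the mean ± SD. The Cdk4 panel of 160538_at spans only 12.31 to 12.89, and the Ccnd2 panel shows the single low value of experiment 2 at 36 h.

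Cdkn2c, on chromosome 4 (109660876 to 109666756), encodes the INK4 inhibitor p18 and fell most clearly of the members. It read 11.07, 11.27 and 11.24 at 0 h and 11.29, 11.41 and 11.13 at 6 h. By 24 h it read 10.75, 10.65 and 10.56, and by 48 h 10.54, 10.54 and 10.23. All values at 24 h and 48 h were below all values at 0 h. Between these, the mean went from 11.20 at 0 h and 11.28 at 6 h to 11.01 at 12 h, and was 10.78 at 18 h and 10.65 at 24 h. The 30 h, 36 h and 42 h means were 10.58, 10.54 and 10.60, and the last, at 48 h, was 10.44. Most of the decline therefore lay between 6 h and 24 h. In deposited intensity the mean went from 2370.7 ± 208.2 at 0 h to 1389.4 ± 156.8 at 48 h (SD, n = 3).

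Cdkn2c fell by 0.54 ± 0.14 at 24 h (adjusted p = 0.0193 in limma), by 0.61 at 30 h (0.00821), by 0.65 at 36 h (0.00494), by 0.60 at 42 h (0.0093) and by 0.76 ± 0.14 at 48 h (0.00106). With the block the 18 h difference of -0.42 was called as well (adjusted p = 0.00547). From 6 h to 48 h it fell by 0.84 ± 0.14 (adjusted p = 0.00162), which was 0.75, 0.87 and 0.90 in experiments 1, 2 and 3. The slope from 6 h to 48 h was -0.40 per day (adjusted p = 0.00213). Cdkn2c was the 1 member called lower at 24 h, 30 h, 36 h, 42 h and 48 h, where 2.84%, 2.87%, 3.48%, 3.10% and 3.23% of all probe sets were called lower. Leaving out experiment 3 ended the 48 h call (adjusted p = 0.0705) and the trend call (0.0571), and the 24 h call was lost without any one experiment (0.052, 0.20 and 0.209). The 30 h, 42 h and 48 h against 6 h calls and the call over all time points were lost without experiment 2 or 3, and the 36 h call without experiment 3.

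The probe sets most like Cdkn2c over the 9 time means were those of H2-K2 (r = 0.982), Apba3 (0.980) and Kif4 (0.975), the last a mitotic kinesin. Among members called higher than 0 h there was Ccnd3 at 30 h and 36 h, and none at 24 h, 42 h or 48 h, where 4.08%, 3.98% and 4.67% of all probe sets were called higher. With the block the Ccnd1 probe set 94232_at was called higher at 36 h, 42 h and 48 h, and Ccnd3 at 36 h. The background at these times was 9.54%, 9.85% and 10.7%. The other Ccnd1 probe set, 94231_at, was called at none of them (adjusted p = 0.176, 0.163 and 0.165 in limma with the block). It was above 0 h in 2 of 3 experiments at each time, with experiment 3 below 0 h (-0.55, -0.05 and -0.02). With 10 probe sets, 1 call is the smallest count above 0, so these counts describe single genes and are not read as a property of the members.

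**Figure D3:**
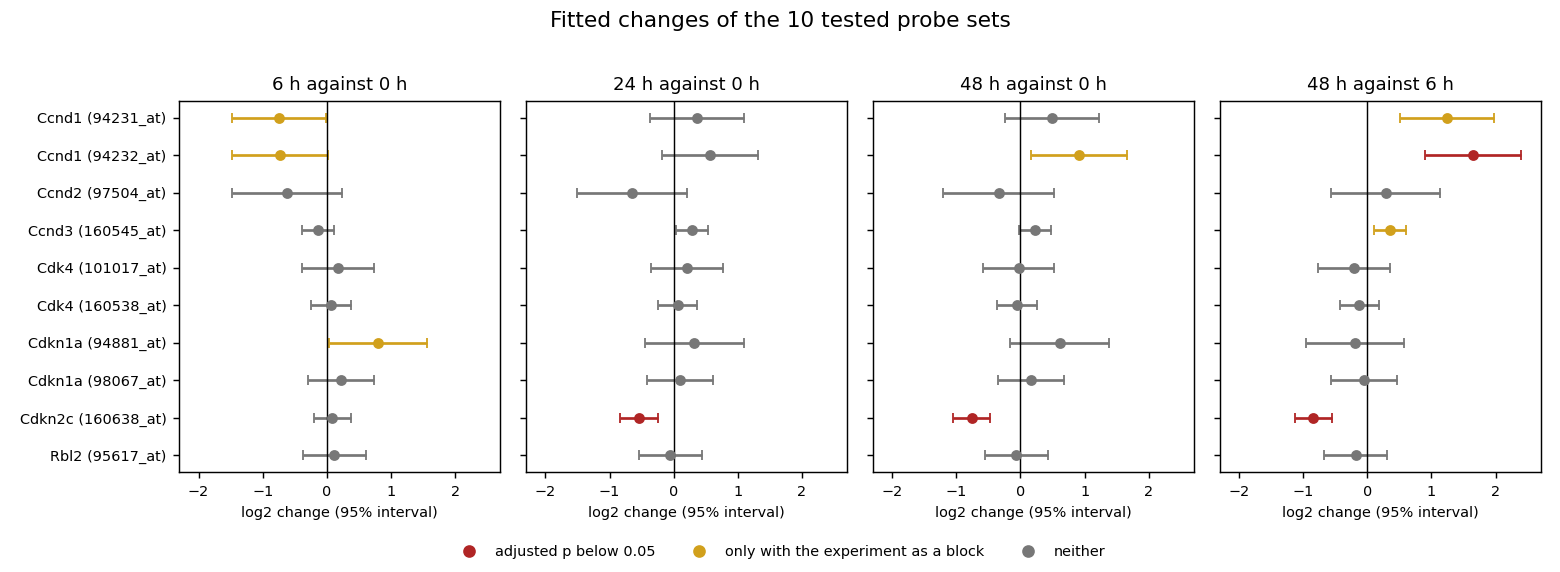
Fitted log2 changes of the 10 tested member probe sets on the x axis, for 6 h, 24 h and 48 h against 0 h and for 48 h against 6 h. The 95% intervals are from the fit without the block. Colour marks probe sets called by limma, those called only with the experiment as a block, and the rest. Cdkn2c lies left of 0 at 24 h and 48 h, and the Ccnd1 probe sets lie left of 0 at 6 h and right of it from 6 h to 48 h.

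Cdkn1a, on chromosome 17 (29090979 to 29100722), encodes p21, a target of p53 and of FoxO factors. Its 2 probe sets differed at 6 h. Probe set 94881_at read 7.03, 8.09 and 7.70 at 0 h and 7.78, 8.59 and 8.84 at 6 h. It was higher in 3 of 3 experiments but the groups overlapped, and the difference of 0.80 ± 0.37 had adjusted p = 0.262 in limma and 0.0282 with the block. At 12 h the difference was 0.71 (0.0448 with the block). Probe set 98067_at, the brighter one, was 0.22 ± 0.25 above 0 h at 6 h (adjusted p = 0.758) and was called in neither fit. At 48 h the 95% intervals were -0.16 to 1.38 and -0.35 to 0.68. With the block the SE of 94881_at at 48 h was 0.25 in place of 0.37. Its unadjusted p in limma with the block was 0.0208 and its adjusted p 0.0855, so it was not called. Experiment 1 gave the lowest 0 h value in both probe sets.

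Cdkn1b encodes p27, which accumulates in serum-starved fibroblasts largely through slower protein turnover, and lies on chromosome 6 (134920401 to 134925525). Cdkn1c, on chromosome 7 (143458339 to 143461059), encodes p57. Their median deposited intensities were 63.1 and 63.3 for the Cdkn1b probe sets and 43.8 for Cdkn1c, with mean log2 intensities of 6.22, 6.23 and 5.75, below the floor of 6.77. The Cdkn1b probe set 100278_at read 6.36, 6.32 and 6.80 at 0 h and 5.88, 5.74 and 6.09 at 48 h. These values did not overlap, and the differences were -0.47, -0.58 and -0.71 in the 3 experiments. The other Cdkn1b probe set, 161010_r_at, differed by -0.45, 0.01 and 0.04. The direction in the first was thus not shared by the second. In a fit with no brightness filter, 0 of 24 tests on these 3 probe sets passed, and the lowest adjusted p was 0.126. Without detection calls, such values cannot be told from background.

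**Figure D4:**
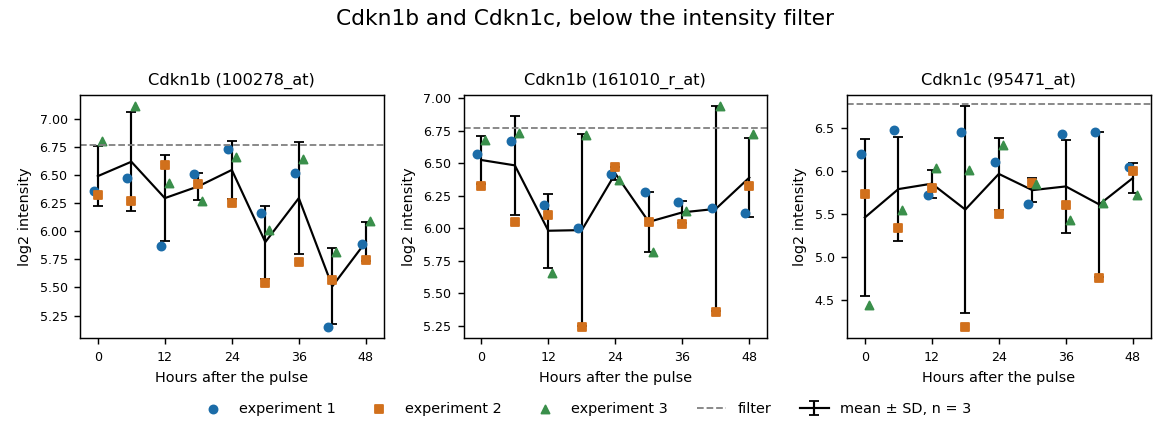
Log2 intensity of the Cdkn1b and Cdkn1c probe sets on the y axis against hours after the pulse on the x axis. Points are the 3 experiments, the line with bars is the mean ± SD and the dashed line is the filter floor of 6.77. The means of all 3 probe sets lie below the floor at every time point.

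Rbl2, on chromosome 8 (91070057 to 91123844), encodes p130, the pocket protein of the DREAM repressor complex in resting cells. It stayed between 6.86 and 7.77 over the 27 arrays. Its time means ranged from 7.09 at 36 h to 7.36 at 12 h, a span close to the mean SD of 0.22 within time points. It was not called in any test, and the 95% interval of the 48 h difference was -0.55 to 0.43. Rbl2 was near the filter floor, with a mean of 7.22.

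The study asked which transcripts cycle with a circadian period, and the members were tested for this on the 24 arrays from 6 h to 48 h. limma called 0 probe sets, or 0% of all, for a 24 h rhythm, with 248 at an unadjusted p below 0.05, of which 0 were members. With the block it again called 0 (783 unadjusted). The largest member amplitudes were 0.24 on the log2 scale, in Ccnd2 and in Ccnd1 (94232_at), with unadjusted p = 0.307 and 0.247 in limma. These amplitudes were smaller than the SD between experiments at a time point, which averaged 0.42 and 0.46. That SD includes level differences between experiments, which the block removes, and is not the error of an amplitude fitted over 24 arrays. The SE of the fitted cosine term was 0.153 for Ccnd2 and 0.137 for Ccnd1 (94232_at). As 0 of all probe sets were called, the lack of a member call is not particular to the members. With the block the unadjusted p in limma was 0.257 for Ccnd2 and 0.0701 for Ccnd1 (94232_at). For 18 h against 12 h limma called 0% of all probe sets, or 0 (243 unadjusted), and 0 members at either threshold. With the block it called 0.161% and again 0 members, but 690 probe sets had an unadjusted p below 0.05, of which 2 were members. These were Ccnd1 (94232_at), higher by 0.74 (unadjusted p = 0.00234, adjusted p = 0.226 in limma), and Cdkn2c, lower by 0.23 (0.0388 and 0.518).

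Over the whole list, values lay on both sides of 0. At 48 h the median change of the 10 tested probe sets was 0.07, with 5 above 0, against a median of 0.00 over all probe sets. At 6 h it was 0.07, with 6 above 0, against 0.00. From 6 h to 48 h it was -0.09, with 4 above 0, against 0.01.

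The other genes of the pathway were described by 1 probe set per gene, the brightest one tested, over 5643 genes. Of these limma called 4.11% higher and 2.55% lower at 6 h, 4.39% and 2.89% at 24 h, 4.96% and 3.31% at 48 h, and 2.89% and 3.76% along the trend. With the block the shares were 11.0% and 7.07% at 6 h, 11.5% and 8.31% at 24 h, 11.3% and 9.48% at 48 h, and 8.29% and 10.1% along the trend. The block raised these shares over all genes, and for each list both counts are given where they differ.

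Of 20 pocket protein, E2F and DREAM genes 9 were tested, and 0 passed at 6 h, 24 h, 48 h or along the trend without the block. The p107 gene Rbl1 had the smallest p at 24 h (-0.78 ± 0.26, adjusted p = 0.0786 in limma), and at 48 h the histone deacetylase gene Hdac1 did (-0.45 ± 0.15, 0.0767). With the block both were called lower at 48 h (adjusted p = 0.0279 and 0.00508) and Rbl1 at 24 h (0.0084). Among the 7 tested later G1 and S phase cyclin and kinase genes 1 fell at 48 h, Cdk1, the mitotic kinase gene, by 1.57 ± 0.45 (adjusted p = 0.0329), and 0 passed at 6 h, 24 h or along the trend. With the block 2 of these genes were called lower at 24 h, at 48 h and along the trend, each time Cdk1 and the cyclin A gene Ccna2. Their 24 h differences were -1.31 and -1.35 (adjusted p = 0.000686 and 0.00833 with the block, 0.0893 and 0.168 without it), and Ccna2 stood at -1.66 at 48 h (0.00135 and 0.0699). At 6 h the block added the cyclin G2 gene Ccng2, higher by 0.84 (0.026 and 0.22).

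Of the 4 other CDK inhibitor genes 1 was tested, the INK4 gene Cdkn2d, and it was called in neither fit (-1.06 ± 0.52 at 48 h, adjusted p = 0.261 in limma). Cdkn2a had deposited intensities of 9.3 to 168.7 with a median of 82.9 and lay below the filter, as did Cdkn2b and Cdkn3. NIH/3T3 is known to lack the Cdkn2a locus, and the median intensities of Ccnd2 and Rbl2, 127.4 and 129.1, lay within the Cdkn2a range. What gave the Cdkn2a signal was not tested. Among 3 tested genes of the CDK-activating kinase and chaperones, the assembly factor gene Mnat1 rose by 0.69 ± 0.16 at 6 h (adjusted p = 0.00937) and by 0.58 at 24 h (0.0285). The block added the kinase chaperone gene Cdc37, lower by 0.42 at 48 h (0.0224, against 0.188 without it).

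Of 13 tested genes for the turnover of cyclin D, p21 and p27, 1 passed without the block. This was Cks2, a small CDK-binding subunit, which fell by 1.45 ± 0.40 at 24 h (adjusted p = 0.0276 in limma) and by 1.37 at 48 h (0.0342). With the block its relative Cks1b was also called lower at 6 h (-0.37, adjusted p = 0.0206, against 0.402 without it) and at 24 h (-0.51, 0.00153 and 0.174), and Skp1 was called higher at 48 h (0.38, 0.0374 and 0.161). Along the trend the block called 1 of the list higher, Cks1b, and 2 lower, Cks2 and Ddb1, against 0 without it. The median changes of these lists at 48 h were -0.03 for the pocket protein list, -0.11 for the cyclin and kinase list and -0.04 for the turnover list, against 0.00 over all genes.

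Transcription factors known to act on D cyclin or CDK inhibitor genes formed the longest list. Of 25 tested, 2 rose and 4 fell at 6 h without the block. Klf6, a zinc finger factor that can activate Cdkn1a, rose by 1.09 ± 0.20 (adjusted p = 0.000969), and Foxo3, whose protein activates Cdkn1b and represses D cyclin genes, rose by 0.87 ± 0.21 (0.0136). The AP-1 genes Fosl1 and Junb fell by 2.97 ± 0.67 (0.007) and by 1.08 ± 0.24 (0.00677). Id2, which encodes an inhibitor of basic helix-loop-helix factors, fell by 1.80 ± 0.38 (0.00422), and the cyclic AMP response gene Crem fell by 1.19 ± 0.31 (0.0212). With the block 5 were called higher and 5 lower at 6 h, the added ones being Sp1, Smad4 and Ctnnb1 (adjusted p = 0.0441, 0.0326 and 0.0186) and, lower, Atf4 (0.00893).

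At 24 h 2 of these factors rose and 5 fell, and the 6 with the largest changes were the 6 named at 6 h, each in the same direction. With the block 4 were called higher and 6 lower, with Jun and Klf4 added above 0 (0.87 and 1.06, adjusted p = 0.000342 and 0.00182 with the block, 0.161 and 0.245 without it) and Mxi1 below 0 (-0.45, 0.0246 and 0.31). At 48 h 5 of these factors were higher and 3 lower than at 0 h, but with the block 5 were higher and 7 lower, so that the balance of directions depended on the fit. The 4 added below 0 were Fosl1 (-1.59, adjusted p = 0.0122 with the block), Mxi1 (-0.68, 0.001), Atf4 (-0.40, 0.0145) and Stat3 (-0.38, 0.0214).

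The 6 largest of the 48 h calls without the block were 4 rises and 2 falls. Klf4 rose by 2.02 ± 0.49 (adjusted p = 0.0109 in limma), Jun by 1.44 ± 0.35 (0.011), Klf6 by 1.38 ± 0.20 (5.64e-05) and Egr1 by 1.07 ± 0.33 (0.0493). Id2 fell by 1.54 (0.0117) and Crem fell by 1.30 (0.00921). Along the trend from 6 h to 48 h Klf4 rose by 1.14 per day and Jun by 0.60 per day (adjusted p = 0.00123 and 0.0206), as did both Ccnd1 probe sets. With the block 3 of the list were called higher and 1 lower along the trend, adding Fosl1 (0.95, 0.000644) and Mxi1 (-0.27, 0.00536). The list's median change at 48 h was 0.02, with 13 of 25 genes above 0.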

How the data were processed

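Total RNA of NIH/3T3 cells was hybridised to 27 Affymetrix mouse U74v2 arrays. The authors deposited linear intensities per probe set, made by an algorithm that the sources used here do not name. A 2% trimmed mean of 500.28 to 500.35 on every array shows that the deposited intensities had been scaled to 1 target. From these, log2(intensity + 12.1), with the 10th percentile as pseudocount, was quantile normalized, and 66 controls and probe sets below the 40th percentile were left out. Fold changes on the log2(intensity + 12.1) scale understate changes of dim probe sets, and precision is limited by the number of arrays.

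With limma 3.58.1 (R 4.3.3; eBayes with intensity trend) 9 time means were fitted, and separately a line beside 24 h cosine and sine terms over the 24 arrays from 6 h on. The code was tested on simulated data. Residuals of arrays of the same experiment correlated in every pair (r from 0.426 to 0.642, 0.349 to 0.599 and 0.135 to 0.482 in experiments 1, 2 and 3), so the numbers pair the arrays. Platform annotation named 10855 probe sets with 1 symbol and 396 with several. Genes named were every member, the genes of each list called without the block (per comparison, the 6 largest where more passed; for a list with no call, the smallest p at 24 h and 48 h), the genes that the block added, which were chosen after their values were seen, and the 3 probe sets most correlated with each member called over time. The members and lists were chosen with earlier results of these data known. Alternatives changed scaling, pseudocount, filter, variance model, block, model terms and arrays.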

Additional observations from a re-analysis of the deposited data

How the results depend on the processing

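With the replicate block, which pairs arrays by experiment, 3 members were called at 6 h against 0 h in place of 0. At 48 h the member counts were 2 against 0 h in place of 1, and 4 against 6 h in place of 2. The block also raised the calls over all probe sets, to 1245 at 6 h against 0 h (454 without it). Over all probe sets there were 1475 at 48 h against 0 h (589) and 1089 at 48 h against 6 h (259). The gain in calls with the block was therefore not particular to the members. Leaving out 1 experiment at a time gave 0 to 1 called members over all time points (3 with all arrays), 0 at 24 h against 0 h in each case (1), 0 to 1 at 48 h against 0 h (1), 0 to 1 at 48 h against 6 h (2) and 0 to 3 along the trend (3). With 2 experiments fewer arrays enter, these fits had no block, and the counts over all probe sets changed as well. They ran from 31 to 504 over all time points (544 with all arrays) and from 128 to 411 at 24 h (516). At 48 h against 0 h they ran from 146 to 558 (589). The range was 4 to 367 at 48 h against 6 h (259) and 37 to 739 along the trend (457). None of the differences and slopes recomputed under each planned setting, which were those of Ccnd1, Ccnd3 and Cdkn2c and the 6 h difference of the Cdkn1a probe set 94881_at, changed sign. Scaling as deposited, median centring, pseudocounts of 1 and 50, no filter, eBayes without a trend, leaving out the 18 h and 30 h arrays of experiment 1, and a rhythm fit without the linear term kept the counts of called members within 1.5 times, although Ccnd3 lost its 36 h call under median centring and under eBayes without a trend (adjusted p = 0.178 and 0.0565), and its call over time under median centring; the cause was not tested. Low signal limits Ccnd2, Rbl2, Cdkn1b and Cdkn1c.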
